A study of Arabidopsis thaliana with 18 samples.

Results

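The response of Arabidopsis thaliana to phosphate limitation (P-lim) was compared between wild-type (WT) plants and the *pad2-1* mutant as a difference of differences, namely the change from control to P-lim in *pad2-1* minus the same change in WT plants. This contrast used 12 of the 18 arrays of the study, in 4 groups of 3 biological replicates: WT control, WT P-lim, *pad2-1* control and *pad2-1* P-lim. All plants had the Col-0 background, were grown for 18 days on Murashige and Skoog (MS) agar with sucrose under long days, and gave RNA from their aerial parts. The control groups grew on the full MS medium, and the P-lim groups grew on MS medium with 20% of its phosphate. *pad2-1* is 1 mutant line with a lesion in *GSH1*, the gene for the enzyme that starts glutathione synthesis; the transcript of *GSH1* itself was not analysed here, so it gave no check of the genotype labels. The other 6 arrays were from WT and *pad2-1* plants that grew on MS medium with methyl viologen (MV), a herbicide that drives the formation of reactive oxygen in the light, and they entered the contrast only through the estimate of the spread. Transcripts were measured on Affymetrix ATH1 arrays, which read each gene with a set of short probes, and the values are log2 signals after RMA, so that a difference of 1 is a factor of 2. In the labels, a free-text line of the WT P-lim and WT MV arrays names the normal medium, whereas their titles and treatment entries say P-lim and MV, which decided their group.

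Plants that run short of phosphate activate a programme controlled by PHR transcription factors. It increases phosphate uptake, frees phosphate from organic compounds and replaces part of the membrane phospholipids with sulfolipids and galactolipids. Glutathione is the main soluble thiol of the cell. It buffers redox changes, feeds peroxide removal and conjugation of toxic compounds, and is linked to sulfur supply. In bulk tissue, a change of expression in cells cannot be told apart from a change in the share of cell types.

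The genotype changed the P-lim response of 165 of 22746 probe sets (limma, Benjamini-Hochberg adjusted p under 0.05), which is 0.725% of those tested. The response was lower in *pad2-1* than in WT plants for 123 of them (0.541%) and higher for 42 (0.185%). The size of the interaction ranged from 0.32 to 3.56 with a median of 0.76, and 57 reached a size of 1, of which 45 were lower and 12 higher. A single gene names 64 of the 165 (49 of them are described here), 5 probe sets match several genes and 96 have no name here. The unnamed and shared probe sets span interactions from -3.56 to 2.83 and are counted but not described one by one. The number of calls moved with single arrays, to 90 without *pad2-1* P-lim replicate 2, 96 without WT P-lim replicate 3, 100 without WT control replicate 2, 102 without WT control replicate 1 and 104 without WT P-lim replicate 2. In all, 81 of the 165, 30 of them named by 1 gene, were called with any 1 of the 12 arrays left out. Of the 49 described genes 12 lost the call with the 12 arrays alone, 4 with arrays shifted to 1 median and 3 with limma's trended robust prior.

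The probe sets were told apart by the genotype whose own response passed the test at the same threshold. Over all probe sets this response passed for 2687 in *pad2-1* (11.8%) and for 2094 in WT plants (9.21%). Of the 165, 76 responded in *pad2-1* alone, with 55 that fell and 21 that rose. Another 42 responded in WT plants alone, with 34 that rose and 8 that fell. Both genotypes responded in the same direction for 34, of which 26 rose and 8 fell, and in opposite directions for 13, of which 11 fell in *pad2-1*. None of the 165 lacked a response in both. The test nearly fixes this, since an interaction is the difference of the 2 own responses and faces a stricter cut, so nothing is read from it. Since a class only says which own response passed, a probe set in the WT class may still have moved in *pad2-1* below the threshold. Likewise, a probe set in the class of *pad2-1* alone may have moved in WT plants. With 1 array left out the class of *pad2-1* alone held between 38 probe sets (without *pad2-1* P-lim replicate 2) and 116 (without *pad2-1* control replicate 3).

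**Figure D1:**
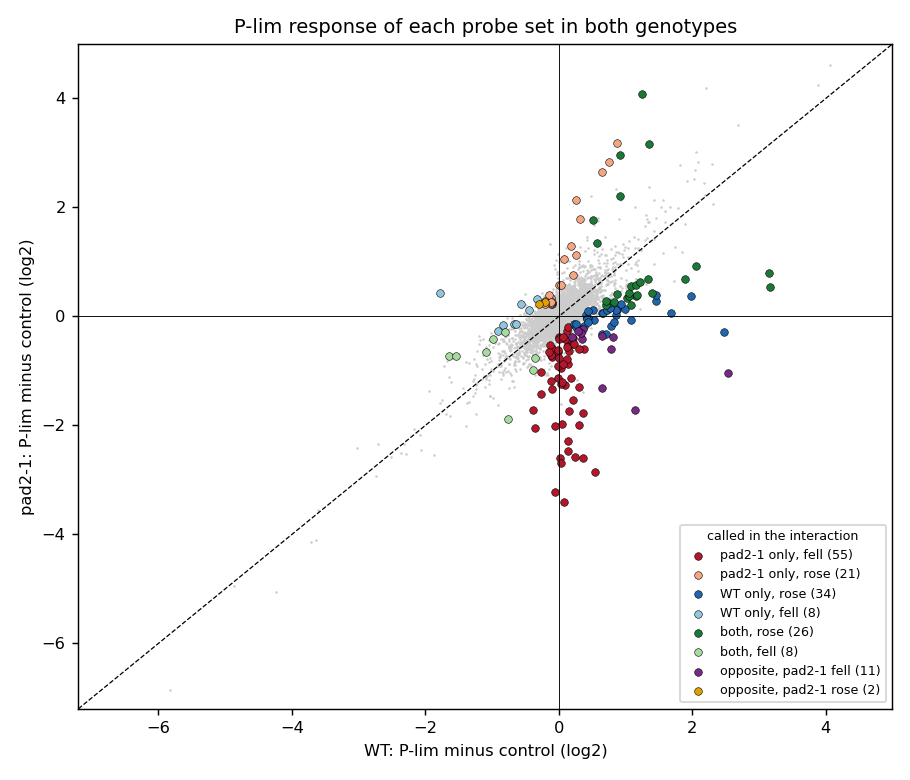
P-lim response (log2, P-lim minus control) of each probe set in WT plants on the x axis and in *pad2-1* on the y axis, with grey points not called in the interaction, coloured points the 165 called ones by class, and the dashed line an equal response. The 55 probe sets that fell in *pad2-1* alone lie below 0 on the y axis with a median WT value of 0.07. The 34 that rose in WT plants alone lie to the right with a median *pad2-1* value of 0.02.

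The largest class was formed by the 55 probe sets that fell in *pad2-1* alone, of which 50 were higher in *pad2-1* than in WT plants in control and 5 did not differ there by the test. Under P-lim 10 were higher, 7 lower and 38 did not pass. The median change of these 55 was -0.96 in *pad2-1* and 0.07 in WT plants. Their mean level was 7.55, 7.44 and 6.87 in the 3 *pad2-1* control arrays, 6.04, 5.97 and 6.13 in *pad2-1* P-lim, and between 5.75 and 5.85 in the 6 arrays of WT control and WT P-lim. *pad2-1* control replicate 3 was thus the lowest of its group and still above all others. The rule that sorted them used these arrays, so the levels are a description.

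Heat shock genes stood among them. These genes encode chaperones that keep other proteins folded and are induced by heat and by oxidative stress. *HSP23.5* (AT5G51440), a mitochondrial small heat shock protein, was at 9.21, 9.21 and 8.31 in *pad2-1* control, at 5.60, 5.31 and 6.14 in *pad2-1* P-lim, at 4.26, 4.23 and 4.07 in WT control and at 4.19, 4.13 and 4.07 in WT P-lim. The *pad2-1* control arrays lay above every other array, *pad2-1* P-lim lay between, and the WT groups overlapped. *HSP23.5* thus fell 9.37-fold in *pad2-1* (log2 fold-change -3.23, SE 0.21) and had a log2 fold-change of -0.06 (SE 0.21) in WT plants, with an interaction of -3.17 (SE 0.29, adjusted p = 3.85e-05, limma).

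*HSP17.6B* (AT2G29500), a cytosolic small heat shock protein, moved in opposite directions. It rose in WT plants from 4.62, 4.74 and 4.51 to 5.82, 5.67 and 5.82, and fell in *pad2-1* from 8.60, 8.26 and 7.40 to 6.29, 6.24 and 6.57. None of the 4 groups overlapped, and the gap between the genotypes shrank from 3.46 in control to 0.60 under P-lim (interaction -2.86, SE 0.32, adjusted p = 0.000155, limma). The gap under P-lim did not pass the test (adjusted p = 0.165, limma). The related *HSP17.6C* (AT1G53540) was at 6.42, 5.92 and 4.62 in *pad2-1* control, whereas the other 9 arrays lay between 3.14 and 3.86, near or below the lower quartile of the arrays (3.80 to 3.91). Its interaction of -2.03 (SE 0.42, adjusted p = 0.028, limma) was no longer called without any 1 of 8 arrays, which were all 3 of WT control, WT P-lim replicates 2 and 3, *pad2-1* control replicate 2 and *pad2-1* P-lim replicates 1 and 2 (adjusted p = 0.0541 to 0.0838), nor with the 12 arrays alone or the trended robust prior (0.0586 to 0.0875). A fall of *HSP17.6C* in WT plants could hardly be measured at such levels.

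Co-chaperones followed the same course. *ROF2* (AT5G48570), a peptidyl-prolyl isomerase that binds HSP90, went from 6.97, 6.78 and 6.26 in *pad2-1* control to 5.54, 5.39 and 5.52 under P-lim, next to WT control values of 5.34, 5.38 and 5.35 (interaction -1.07, SE 0.19, adjusted p = 0.00857, limma). *Fes1A* (AT3G09350), which protects HSP70, fell from 8.34, 7.84 and 7.39 to 6.79, 6.70 and 6.67 in *pad2-1*, with 6.47 ± 0.076 (SD, n = 3) in WT control and 6.45 ± 0.059 (SD, n = 3) in WT P-lim (interaction -1.12, SE 0.21, adjusted p = 0.0121, limma). Under P-lim the *pad2-1* arrays of both genes still lay above the WT arrays, by 0.25 (*ROF2*, adjusted p = 0.367) and 0.27 (*Fes1A*, adjusted p = 0.383), and neither difference passed the test. Of the 32 listed heat shock and chaperone genes 9 were measured, which for all lists here means that a probe set carried the name of that gene alone. Other listed genes may still be among the unnamed probe sets tested, and the counts of the lists do not cover them. Of the 9 measured genes, 5 had a lower interaction and none a higher one, next to 0.541% and 0.185% of all probe sets. All lists here were chosen with earlier results of these data known, so their counts are a description and no independent support. The median interaction was -1.12 against 0.01 over all probe sets. In *pad2-1* 8 of the 9 fell under P-lim and 8 were higher than in WT plants in control, and in WT plants 1 rose and none fell. Over all probe sets a P-lim response in either direction passed for 11.8% in *pad2-1* and 9.21% in WT plants. In control 3.66% of all probe sets were higher in *pad2-1*. *Hop3* (AT4G12400), which links HSP70 to HSP90, lay just past the threshold with an interaction of -1.23 (SE 0.28, adjusted p = 0.0509, limma), and *HSP15.7* (AT5G37670), a small heat shock protein of peroxisomes, had one of -0.10 (SE 0.17). The WT control means of *Hop3* (3.30), *HSP17.6C* (3.30) and *HSP26.5* (AT1G52560, 2.80) lay below the lower quartile of every array (3.80 to 3.91). That of *ATHSP22.0* (AT4G10250) was within this range at 3.84. A fall in WT plants could hardly be measured for them, which limits the WT count and the median interaction of the list. The mean over the 9 genes was 5.64 to 6.67 in the *pad2-1* control arrays, 4.77 to 4.94 in *pad2-1* P-lim, 4.43 to 4.48 in WT P-lim and 4.32 to 4.36 in WT control.

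*pad2-1* control replicate 3 was the lowest array of its group for these heat shock genes. Without it the interactions grew in size, to -3.47 for *HSP23.5* (adjusted p = 9.28e-08, limma), -3.21 for *HSP17.6B* (4.4e-07) and -2.55 for *HSP17.6C* (8.89e-06). The median SD over the 165 probe sets was 0.133 in *pad2-1* control, 0.0952 in *pad2-1* P-lim, 0.0849 in WT control and 0.0689 in WT P-lim, against 0.0611 to 0.0782 over all probe sets. The part of this spread in the calls was not tested beyond leaving out each array.

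*UPOX* (AT2G21640), a mitochondrial protein whose transcript is a marker of oxidative stress, was at 8.13, 8.33 and 7.13 in *pad2-1* control and at 6.50, 6.60 and 6.59 in *pad2-1* P-lim, whereas WT plants had 5.40, 5.42 and 5.56 in control and 5.85, 5.74 and 5.67 under P-lim. It fell 2.46-fold in *pad2-1* (interaction -1.59, SE 0.28, adjusted p = 0.00873, limma) and remained 0.81 above WT plants under P-lim (adjusted p = 0.0208). AT2G41730, which has no symbol here, had the largest interaction among the single genes (-3.40, SE 0.35, adjusted p = 7.15e-05, limma). It was at 9.48, 9.39 and 8.24 in *pad2-1* control, at 5.89, 5.93 and 6.70 in *pad2-1* P-lim, at 4.80, 4.63 and 4.55 in WT control and at 5.31, 5.21 and 5.06 in WT P-lim. Its probe set is of a kind that can bind transcripts of other genes as well, which holds for 11 of the 165. AT1G71000 stood above the lower quartile in *pad2-1* control alone, at 6.56, 6.20 and 4.64, and the other 9 arrays lay between 3.03 and 3.22, below the lower quartile of each array (interaction -2.63, SE 0.41, adjusted p = 0.00344, limma).

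Other named genes that fell in *pad2-1* alone have no list of their own. *ERF71* (AT2G47520), a transcription factor of the low-oxygen response, went from 5.42, 5.32 and 4.39 to 3.88, 3.82 and 3.63, and was at 3.55 ± 0.042 (SD, n = 3) in WT control and 3.64 ± 0.11 (SD, n = 3) in WT P-lim (interaction -1.36, SE 0.25, adjusted p = 0.0107, limma). The WT means lie below the lower quartile of every array (3.80 to 3.91), where a fall could hardly be measured. *EXO* (AT4G08950), an extracellular protein of brassinosteroid-promoted growth, was at 8.90, 8.93 and 8.92 in *pad2-1* control and at 7.57, 7.56 and 7.64 in *pad2-1* P-lim, against 7.96, 7.90 and 8.29 in WT control and 8.04, 8.01 and 7.80 in WT P-lim. Here the order of the genotypes turned, with *pad2-1* above WT plants by 0.87 in control (adjusted p = 1.61e-05) and below them by 0.36 under P-lim (difference -0.36, adjusted p = 0.0443), and the interaction was -1.23 (SE 0.14, adjusted p = 0.000189, limma).

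*EXLA1* (AT3G45970), an expansin-like protein of the cell wall, fell in *pad2-1* from 6.12, 6.18 and 5.91 to 5.31, 4.86 and 5.17, with WT control at 5.39, 5.15 and 5.56 and WT P-lim at 5.34, 5.45 and 5.43 (interaction -1.0, SE 0.16, adjusted p = 0.00462, limma). Its relative *EXLA2* (AT4G38400) rose in WT plants by 0.36 and fell in *pad2-1* by 0.23 on the log2 scale (interaction -0.59, SE 0.10, adjusted p = 0.00826, limma). Both expansin-like genes were higher in *pad2-1* than in WT plants in control. In the list of cell wall modification genes, which holds neither, 4 of 13 were measured. None passed the interaction in limma (0 at an unadjusted p under 0.05), with a median of 0.09. In *pad2-1* 2 of them rose and 1 fell, next to 11.8% of all probe sets that passed in either direction. Smaller interactions were those of *RALFL33* (AT4G15800), a RALF-like peptide signal (-0.65, SE 0.08, adjusted p = 0.000301, limma), *TIL* (AT5G58070), a lipocalin induced by temperature changes (-0.48, SE 0.08, adjusted p = 0.00857), and *PUB25* (AT3G19380), a U-box ubiquitin ligase (-0.58, SE 0.12, adjusted p = 0.0297). *TIL* was at 10.27, 10.27 and 10.07 in *pad2-1* control and between 9.39 and 9.66 in the other 9 arrays. The call of *PUB25* was lost without any 1 of 8 arrays, namely the 3 of WT P-lim, WT control replicates 1 and 2, *pad2-1* P-lim replicate 2, and replicates 1 and 2 of *pad2-1* control (adjusted p = 0.0507 to 0.0977).

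**Figure D2:**
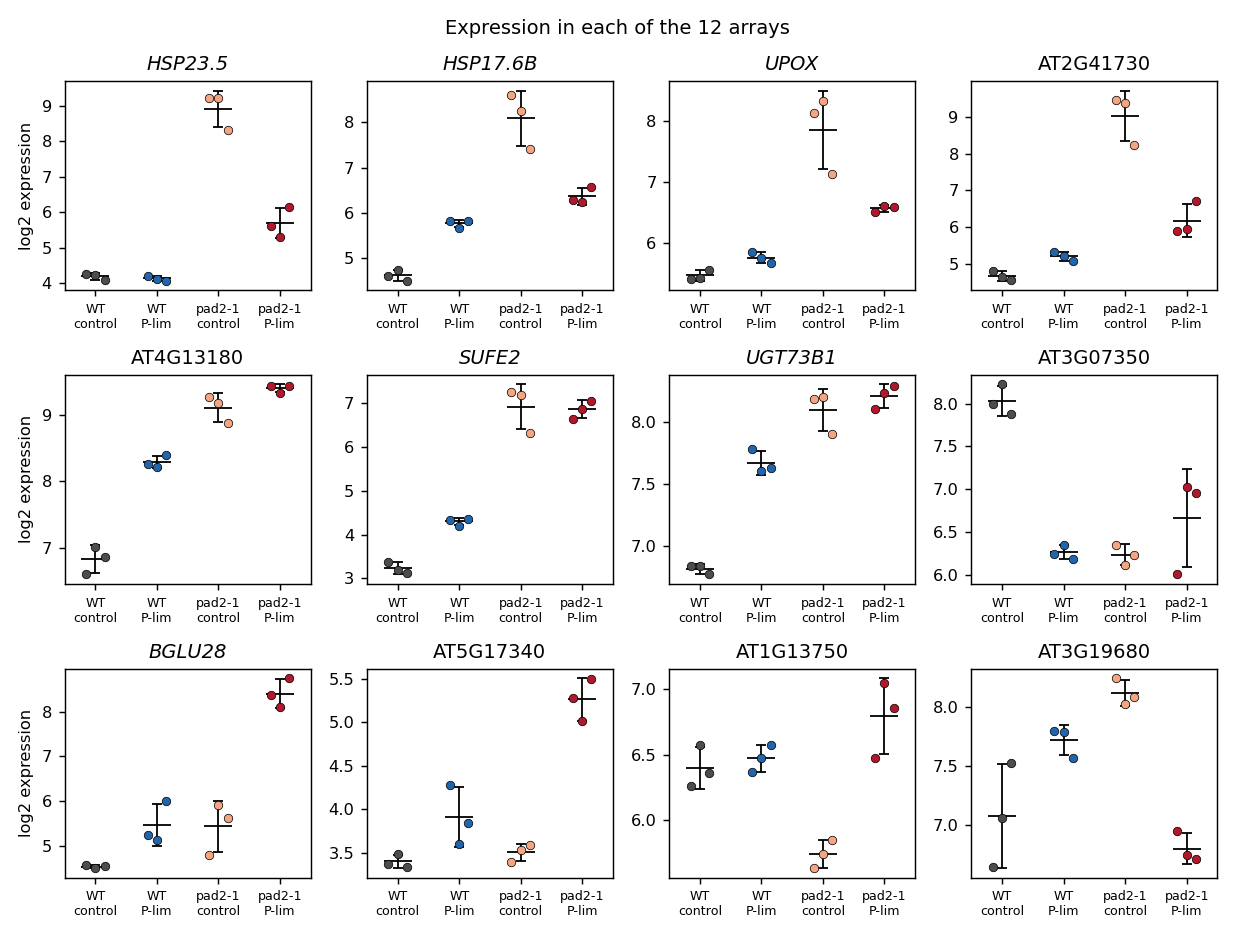
Log2 expression of 12 genes in each of the 12 arrays, with a point for each array, a horizontal bar for the group mean and whiskers of 1 SD (n = 3); each panel has its own y axis, which does not start at 0. The top row and AT3G19680 show genes that are high in *pad2-1* control and fall under P-lim, AT4G13180, *SUFE2* and *UGT73B1* genes that rise in WT plants and are already high in *pad2-1* control, and *BGLU28* and AT5G17340 genes with a larger rise in *pad2-1*.

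The 34 probe sets that rose in WT plants alone had a median change of 0.72 in WT plants and 0.02 in *pad2-1*, and 27 of them were higher in *pad2-1* than in WT plants in control. Under P-lim 15 were higher and 11 lower in *pad2-1*, and 4 changed sign between the conditions with both differences past the test. AT4G13180 rose in WT plants from 6.60, 7.02 and 6.86 to 8.26, 8.21 and 8.39, while *pad2-1* had 9.27, 9.18 and 8.87 in control and 9.43, 9.33 and 9.43 under P-lim. All WT arrays lay below all *pad2-1* arrays, and the gap narrowed from 2.28 to 1.11 (interaction -1.17, SE 0.15, adjusted p = 0.000442, limma).

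*UGT73B1* (AT4G34138), a glycosyltransferase, rose in WT plants from 6.84, 6.84 and 6.77 to 7.78, 7.61 and 7.63 and was at 8.18, 8.20 and 7.90 in *pad2-1* control and 8.10, 8.23 and 8.29 in *pad2-1* P-lim, so that the groups of *pad2-1* overlapped and lay above WT plants in both conditions (interaction -0.74, SE 0.12, adjusted p = 0.00311, limma). *AER* (AT5G16970), a reductase that removes reactive alkenals, went from 7.84, 7.74 and 7.73 to 8.45, 8.56 and 8.58 in WT plants, with 8.98, 9.05 and 8.79 in *pad2-1* control and 8.94, 9.11 and 9.25 in *pad2-1* P-lim (interaction -0.60, SE 0.12, adjusted p = 0.0199, limma). *SUFE2* (AT1G67810), which activates the sulfur-releasing enzyme of iron-sulfur cluster assembly, rose in WT plants from 3.38, 3.19 and 3.11 to 4.34, 4.21 and 4.37, a rise that starts below the lower quartile of every array (3.80 to 3.91), so that its fold is not given. In *pad2-1* the *SUFE2* transcript was at 7.25, 7.19 and 6.33 in control and 6.65, 6.88 and 7.07 under P-lim, above all WT arrays (interaction -1.14, SE 0.25, adjusted p = 0.0379, limma).

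*NDB2* (AT4G05020), an alternative NAD(P)H dehydrogenase of mitochondria, rose in WT plants from 5.49, 5.55 and 5.55 to 6.20, 6.17 and 6.20, next to 6.71, 6.73 and 6.53 in *pad2-1* control and 6.52, 6.71 and 6.95 in *pad2-1* P-lim (interaction -0.59, SE 0.12, adjusted p = 0.0295, limma). These calls were less firm than that of *UGT73B1*, which held without any 1 array (adjusted p up to 0.0127). The call of *SUFE2* held only without *pad2-1* control replicate 3 or *pad2-1* P-lim replicate 3 (otherwise adjusted p = 0.0555 to 0.104), and it was also lost with the 12 arrays alone and with the trended robust prior. *NDB2* lost its call without any 1 of 9 arrays (adjusted p = 0.0563 to 0.0841), all but *pad2-1* control replicate 3 and *pad2-1* P-lim replicates 1 and 3. *AER* lost it without WT control replicates 2 or 3, WT P-lim replicates 2 or 3, *pad2-1* control replicates 1 or 2 or *pad2-1* P-lim replicate 2 (adjusted p = 0.0522 to 0.0657).

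Transcription factors and nitrogen genes of the class showed smaller differences. *BZIP61* (AT3G58120), a bZIP transcription factor, had no gap between the genotypes in control (-0.03, SE 0.09) and rose in WT plants by 0.52 (interaction -0.58, SE 0.13, adjusted p = 0.0423, limma). *BZIP53* (AT3G62420), a bZIP factor of amino acid metabolism under low energy, and *AAH* (AT4G20070), which breaks down allantoate, had interactions of -0.37 (SE 0.08, adjusted p = 0.0441, limma) and -0.46 (SE 0.10, adjusted p = 0.0338). For both the genotypes were apart by 0.35 and 0.43 in control, with *pad2-1* higher, and by -0.02 and -0.03 under P-lim. With 1 array left out, the call of *BZIP53* was lost in each of the 12 cases (adjusted p = 0.0531 to 0.121), that of *BZIP61* in 10, all but WT control replicate 1 and *pad2-1* P-lim replicate 1 (0.0534 to 0.130), and that of *AAH* in 8, all but WT control replicate 2, WT P-lim replicate 1 and *pad2-1* control replicates 2 and 3 (0.0625 to 0.102).

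Other genes named by their locus alone in this class were AT2G47440 (interaction -0.95, SE 0.15, adjusted p = 0.00313, limma), AT1G10020 (-0.93, SE 0.12, adjusted p = 0.000353) and AT2G41380 (-1.06, SE 0.22, adjusted p = 0.0341). In AT1G10020 WT plants rose from 6.79, 6.76 and 6.72 to 7.56, 7.64 and 7.57 and passed *pad2-1*, which was at 7.21, 7.42 and 7.32 in control and at 7.39, 7.18 and 7.10 under P-lim. The WT groups did not overlap there and the *pad2-1* groups did. The call of AT2G41380 held only without *pad2-1* control replicate 3 or *pad2-1* P-lim replicate 3 (otherwise adjusted p = 0.0616 to 0.092), and its WT control mean of 3.51 lies below the lower quartile of every array.

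Only 8 probe sets fell in WT plants alone. AT3G07350 was at 8.00, 8.23 and 7.88 in WT control and at 6.25, 6.35 and 6.19 in WT P-lim, and *pad2-1* plants were at 6.35, 6.11 and 6.24 in control and at 6.0, 7.03 and 6.95 under P-lim. WT control thus stood above all other groups, which overlapped with each other, and the interaction was 2.20 (SE 0.27, adjusted p = 0.000246, limma). AT1G73040 fell in WT plants from 5.87, 6.10 and 6.09 to 5.47, 5.46 and 5.41 and went from 5.41, 5.55 and 5.79 to 5.88, 5.84 and 5.68 in *pad2-1* (interaction 0.79, SE 0.16, adjusted p = 0.0199, limma). Without WT control replicates 2 or 3, WT P-lim replicate 3, *pad2-1* control replicates 1 or 2 or *pad2-1* P-lim replicate 2 AT1G73040 was not called (adjusted p = 0.0548 to 0.0672). AT1G70420 completed the named genes of the class (interaction 0.65, SE 0.15, adjusted p = 0.0484), and its call held only without *pad2-1* P-lim replicate 1 (otherwise 0.0507 to 0.144).

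Among the 26 probe sets that rose in both genotypes, the rise was smaller in *pad2-1* for 20 and larger for 6. *BGLU28* (AT2G44460), a beta-glucosidase known as a marker of sulfur deficiency, had the largest higher interaction of these among named genes. It rose in *pad2-1* from 4.80, 5.91 and 5.62 to 8.37, 8.10 and 8.75, which is 7.81-fold, and in WT plants from 4.57, 4.50 and 4.55 to 5.25, 5.14 and 6.0, which is 1.90-fold (interaction 2.04, SE 0.36, adjusted p = 0.00857, limma). The *pad2-1* P-lim arrays lay above all others, and the arrays of WT P-lim and *pad2-1* control overlapped.

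AT5G17340 was below the lower quartile of every array (3.80 to 3.91) in control, at 3.37, 3.49 and 3.34 in WT plants and 3.39, 3.53 and 3.58 in *pad2-1*. Under P-lim it was at 4.28, 3.60 and 3.85 in WT plants and at 5.28, 5.01 and 5.50 in *pad2-1* (interaction 1.25, SE 0.19, adjusted p = 0.00299, limma). The genotypes overlapped in control and did not under P-lim, and the rise starts from values near the background. In the other direction, AT5G61820 rose from 9.60, 9.57 and 9.64 to 10.78, 10.70 and 10.83 in WT plants and from 11.28, 11.20 and 10.95 to 11.41, 11.52 and 11.61 in *pad2-1* (interaction -0.79, SE 0.10, adjusted p = 0.000544, limma).

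AT3G56200 had the same level in both genotypes in control (7.43 ± 0.042 in WT plants and 7.48 ± 0.12 in *pad2-1*, SD, n = 3) and rose to 8.48 ± 0.078 in WT plants and 7.85 ± 0.082 in *pad2-1* (interaction -0.68, SE 0.11, adjusted p = 0.00511, limma). *THE1* (AT5G54380), a receptor kinase that monitors the cell wall, rose by 0.75 in WT plants and by 0.25 in *pad2-1* (interaction -0.50, SE 0.10, adjusted p = 0.0181, limma). The call of *THE1* was lost without WT control replicates 1 or 2, WT P-lim replicate 2 or *pad2-1* P-lim replicate 2 (adjusted p = 0.0517 to 0.0672).

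Of the 8 probe sets that fell in both genotypes, 5 fell less in *pad2-1* and 3 fell more. AT5G60680 went from 8.81, 8.71 and 8.67 to 7.10, 7.09 and 7.06 in WT plants and from 8.48, 8.21 and 8.44 to 7.31, 7.72 and 7.91 in *pad2-1* (interaction 0.91, SE 0.19, adjusted p = 0.0332, limma). Its call was lost without any 1 array of WT plants, *pad2-1* control replicate 2 or *pad2-1* P-lim replicates 2 or 3 (adjusted p = 0.054 to 0.0977). AT3G23880 had an interaction of 0.56 (SE 0.11, adjusted p = 0.0157; 0.0555 without WT control replicate 1) and AT3G51400 one of 0.44 (SE 0.10, adjusted p = 0.0415), which was called only without WT control replicate 3 or *pad2-1* control replicate 1 among the arrays left out (otherwise 0.0637 to 0.112). *UPB1* (AT2G47270), a transcription factor that controls peroxidase genes in the root, was below the lower quartile in all 12 arrays (2.62 to 3.55), so that its interaction of 0.52 (SE 0.10, adjusted p = 0.0157) rests on values near the background; it was not called without *pad2-1* control replicate 2 or *pad2-1* P-lim replicate 2 (0.0528 to 0.0625). AT4G25780 fell more in *pad2-1*, by 0.98 against 0.38 in WT plants on the log2 scale (interaction -0.59, SE 0.11, adjusted p = 0.0135; 0.0507 without WT P-lim replicate 3).

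Opposite responses were rare, with 13 probe sets. AT3G19680 rose in WT plants from 6.64, 7.06 and 7.52 to 7.80, 7.79 and 7.57 and fell in *pad2-1* from 8.24, 8.03 and 8.08 to 6.95, 6.74 and 6.71 (interaction -1.96, SE 0.21, adjusted p = 7.15e-05, limma). *pad2-1* lay above WT plants in control and below them under P-lim, with no overlap in either condition. AT1G74750 (interaction -0.58, SE 0.09, adjusted p = 0.00203) and AT1G18740 (-0.56, SE 0.12, adjusted p = 0.0341) also rose in WT plants and fell in *pad2-1*, and the call of the latter held only without *pad2-1* P-lim replicate 1 or *pad2-1* control replicate 3 (otherwise 0.0533 to 0.102). In the other direction, AT3G22970 (interaction 0.46, SE 0.08, adjusted p = 0.0102) and AT1G61420 (0.52, SE 0.09, adjusted p = 0.00873) fell in WT plants by 0.20 and 0.30 and rose in *pad2-1* by 0.26 and 0.22. AT1G61420 was near or below the lower quartile throughout (3.40 to 3.85).

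The 21 probe sets that rose in *pad2-1* alone had a median change of 0.58 there and 0.01 in WT plants. AT1G13750 went from 5.63, 5.74 and 5.85 in *pad2-1* control to 6.48, 7.05 and 6.86 in *pad2-1* P-lim, while WT plants had 6.26, 6.58 and 6.36 in control and 6.37, 6.47 and 6.58 under P-lim. *pad2-1* control lay below the other 3 groups, which overlapped (interaction 0.98, SE 0.19, adjusted p = 0.0157, limma). The adjusted p of AT1G13750 was 0.055 and 0.056 without WT control replicate 2 and without *pad2-1* P-lim replicate 2. The other named members of the class had interactions of at most 0.49 (AT3G10530, SE 0.11, adjusted p = 0.0391), and the calls of AT3G10530, AT2G37400 (0.44), AT1G36550 (0.38) and AT1G52930 (0.36) were lost without any 1 of 8 to 10 of the 12 arrays. AT1G36550 was also below the lower quartile in all 4 group means (2.83 to 3.10). The larger rises of this class, up to an interaction of 2.30, belong to probe sets without a name.

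Each interaction can also be read as a difference between the genotypes that depends on the condition. Over all probe sets *pad2-1* differed from WT plants for 1444 in control (6.35%), of which 833 were higher (3.66%), and for 1207 under P-lim (5.31%). Of the 165, 68 differed between the genotypes in control only, 36 under P-lim only, 57 in both conditions and 4 in neither. The order of these counts rests on single arrays, since without *pad2-1* P-lim replicate 1 it was 70 in control only and 78 under P-lim only. The count in control only fell to 39 without WT control replicate 1 or *pad2-1* P-lim replicate 2, 40 without WT control replicate 2, 41 without WT P-lim replicate 3 and 42 without *pad2-1* control replicate 2. That under P-lim only fell to 16, 18, 19 and 20 without *pad2-1* P-lim replicate 2, WT P-lim replicate 3, WT P-lim replicate 2 and WT control replicate 2. In control 107 were higher and 18 lower in *pad2-1*, and under P-lim 65 were higher and 28 lower. Of the 57 that differed in both conditions, 43 kept their sign with a smaller gap under P-lim, 1 kept it with a larger gap and 13 changed sign. The contrast is made of these differences, so the counts describe it and nothing is read from their share. The single gene with a larger gap was *BGLU28*, with 0.90 in control (adjusted p = 0.0391, limma) and 2.94 under P-lim (adjusted p = 2.53e-06).

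**Figure D3:**
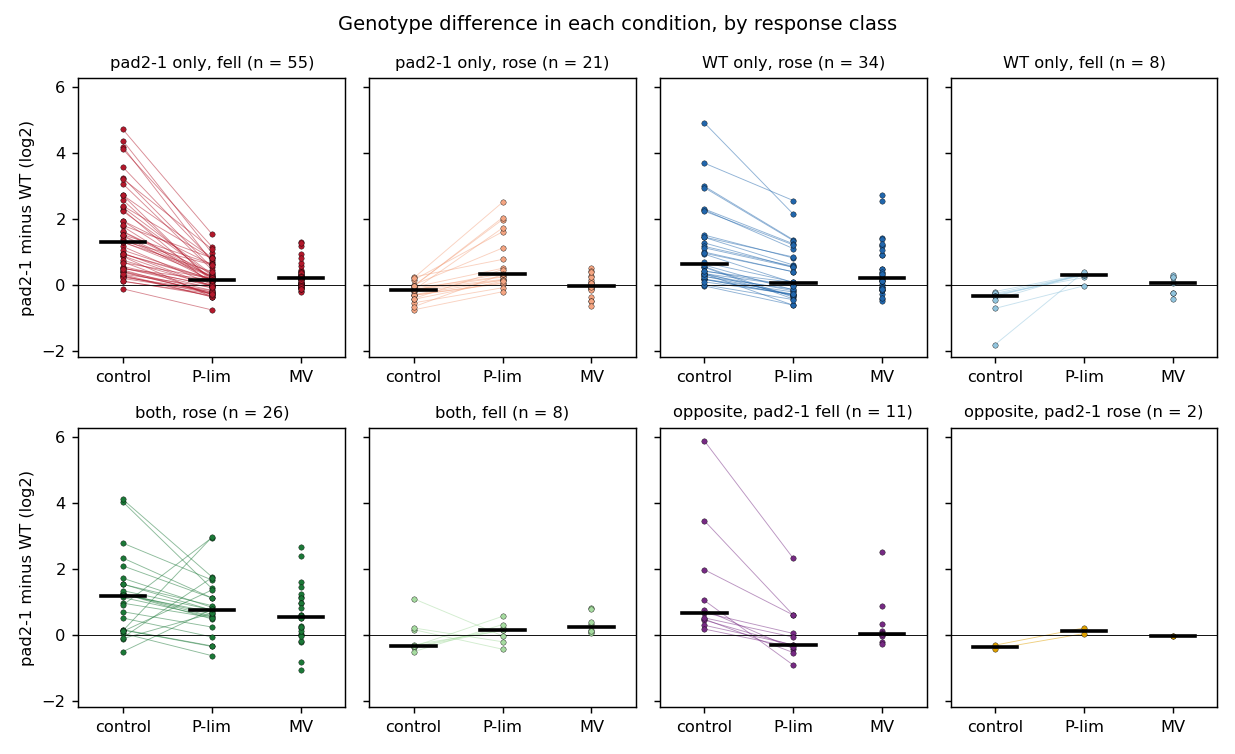
Difference between *pad2-1* and WT plants (log2) in control, under P-lim and under MV for the 165 called probe sets, by response class, with a point for each probe set, lines that join its values in control and P-lim, and black bars for medians. In the class that fell in *pad2-1* alone the median drops from 1.29 in control to 0.16 under P-lim and is 0.21 under MV.

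The MV arrays took no part in the contrast, so the difference between the genotypes there is a readout that did not choose the probe sets, apart from the shared estimate of the spread. Over all probe sets 1174 differed between the genotypes under MV (5.16%), of which 533 were higher in *pad2-1* (2.34%). Of the 165, 56 differed, which is 33.9%, with 46 higher and 10 lower. Differences between the classes in this readout were not tested. Of the 34 that rose in WT plants alone, 20 differed under MV (58.8%) and 17 were higher in *pad2-1*, such as *SUFE2* (2.55, adjusted p = 1.18e-07, limma), AT4G13180 (1.40, adjusted p = 2.63e-07) and *UGT73B1* (1.24, adjusted p = 9.73e-08). Of the 55 that fell in *pad2-1* alone, 8 differed (14.5%), all higher in *pad2-1*, with *HSP23.5* at 1.19 (adjusted p = 0.00144) against 4.72 in control, whereas AT1G71000 (0.04), *ERF71* (0.01) and *ROF2* (-0.08) did not pass the test.

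The interaction of genotype with MV, which shares the control arrays, passed for 376 probe sets (1.65%) in the whole table. The values of both interactions stand side by side here and their likeness is no result, because a deviation of the shared controls would enter both. In the class that fell in *pad2-1* alone the median was -1.0 with P-lim and -0.99 with MV, and in the class that rose in WT plants alone it was -0.60 and -0.53. For the 21 that rose in *pad2-1* alone it was 0.55 with P-lim and 0.19 with MV. Subtracting one interaction from the other removes the controls and passed for 296 probe sets (1.3%). Of the 165, which were chosen with the P-lim arrays of this test, 30 passed, 16 with a higher and 14 with a lower value for P-lim, and the class that rose in *pad2-1* alone held 8 of them.

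The 9 described genes among these 30 include *BGLU28* (2.04 with P-lim, 0.55 with MV), AT5G17340 (1.25 and -0.14), AT1G13750 (0.98 and 0.02), AT1G73040 (0.79 and 0.01) and AT3G10530 (0.50 and -0.0041), which were higher for P-lim. *UGT73B1* had -0.74 with P-lim and -0.04 with MV, *RALFL33* had -0.65 and -0.18, AT4G25780 had -0.59 and -0.06, and *EXO* had -1.23 and -0.63. In WT plants *UGT73B1* had a mean of 6.72 under MV, 6.82 in control and 7.67 under P-lim.

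**Figure D4:**
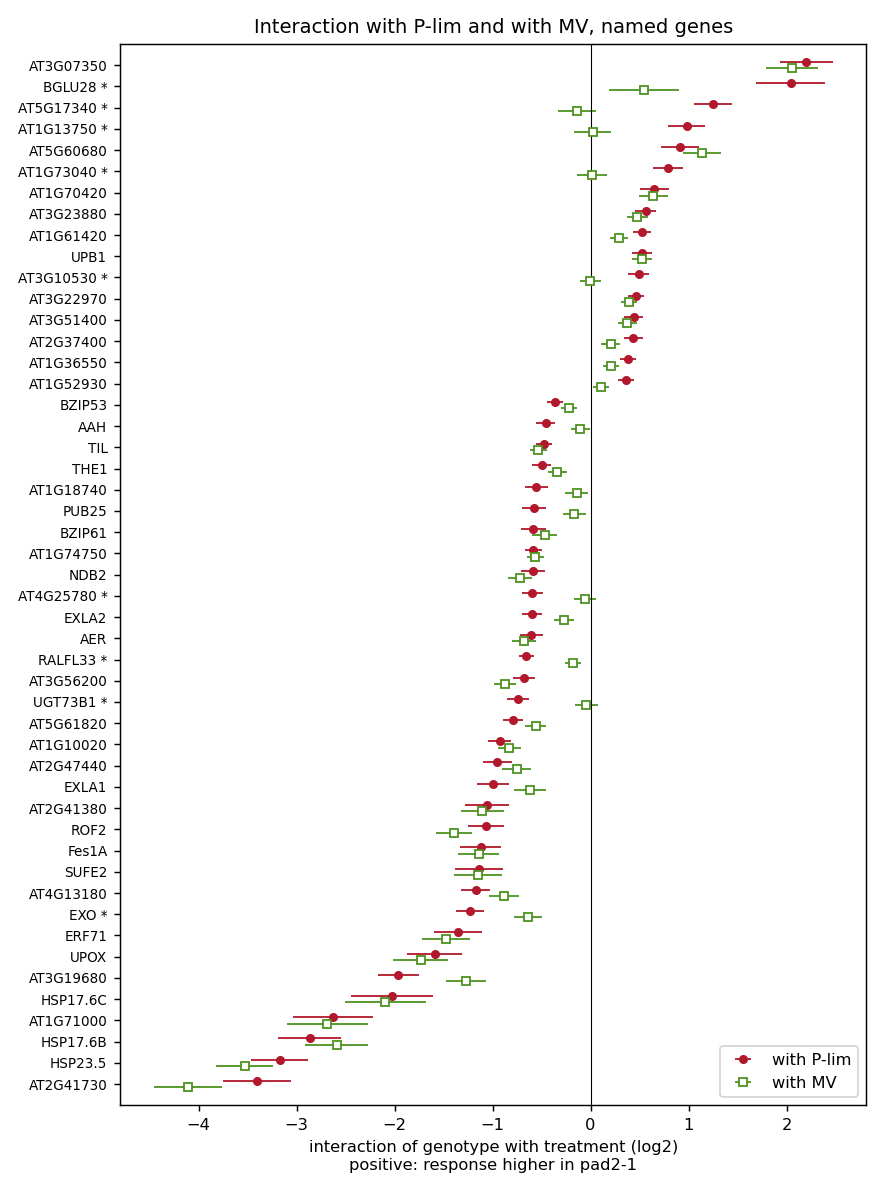
Interaction of genotype with P-lim (filled circles) and with MV (open squares) for 49 named genes, on a log2 scale with bars of 1 SE; both share the control arrays. Stars mark the genes whose 2 interactions differ (adjusted p under 0.05, limma), such as *BGLU28* with 2.04 and 0.55 and *UGT73B1* with -0.74 and -0.04.

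The gene lists of other pathways held few named members in the interaction. In sulfur assimilation and glutathione metabolism 7 of 34 listed genes were measured. The interaction was higher for 1 (*BGLU28*) and lower for 1 (*SUFE2*), next to 0.185% and 0.541% of all probe sets, with a median of -0.09. *SIR* (AT5G04590), which encodes sulfite reductase, rose in both genotypes, by 0.74 and 0.87 in WT and *pad2-1* plants, and its interaction of 0.13 (SE 0.09) did not pass. In antioxidant and oxidative stress genes 2 of 3 measured members were lower (*UPOX* and *NDB2*), next to 0.541% of all probe sets. Like all lists here, these were chosen with earlier results of these data known, so such counts are a description. None of the 12 measured glutathione transferases and none of the 13 measured glutaredoxins passed the interaction in limma, with 0 and 5 at an unadjusted p under 0.05, which 10.1% of all probe sets had (2289). The lists hold 43 and 21 genes, and those without a name here may be among the unnamed probe sets tested. The result therefore does not cover either family as a whole. The paper reports other glutathione transferases as up-regulated under P-lim in the mutant only. Those have no name here, so their interaction was not looked up. Among the 13 measured glutaredoxins 8 fell in WT plants and 7 in *pad2-1*, next to 9.21% and 11.8% of all probe sets that passed in either direction.

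Some genes of abscisic acid, cold and dehydration came close to the threshold. All 4 measured members of the 25 listed genes fell in *pad2-1* and none passed in WT plants. Over all probe sets 11.8% and 9.21% passed in either direction. Yet no interaction passed in limma (3 at an unadjusted p under 0.05). It was -0.86 (SE 0.22, adjusted p = 0.0839) for the dehydrin *LTI30* (AT3G50970) and -0.58 (SE 0.15, adjusted p = 0.0861) for the dehydrin *COR47* (AT1G20440). *COR15B* (AT2G42530) had -0.41 (adjusted p = 0.206) and *COR15A* (AT2G42540) had -0.23 (adjusted p = 0.639). In aliphatic glucosinolate synthesis 5 of 26 listed genes were measured. Of these 4 rose in *pad2-1* and none passed in WT plants, next to the same shares of all probe sets. None passed the interaction in limma (3 at an unadjusted p under 0.05), with 0.47 (SE 0.20, adjusted p = 0.439) for *BCAT4* (AT3G19710), which starts the chain elongation of methionine. A response that passed in *pad2-1* and not in WT plants is therefore not shown to differ between the genotypes for these measured genes. The listed genes without a name here are not covered.

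Of 33 listed phosphate starvation genes only *LPR1* (AT1G23010), an oxidase of phosphate sensing in roots, carried a name here, and its interaction was 0.05 (SE 0.20). *NMT3* (AT1G73600), a methyltransferase of phosphatidylcholine synthesis, rose in *pad2-1* by 0.38 and had -0.19 in WT plants, and its interaction of 0.57 (SE 0.13, adjusted p = 0.0521, limma) lay just outside the threshold. The 3 measured iron genes fell in both genotypes. A P-lim response in either direction passed for 9.21% of all probe sets in WT plants and 11.8% in *pad2-1*. *IMA1* (AT1G47400), a peptide signal of iron deficiency, had -5.83 in WT plants and -6.85 in *pad2-1*, with an interaction of -1.02 (SE 0.29, adjusted p = 0.134, limma). Under P-lim its arrays lay at 3.09 to 3.37 in WT plants and 2.67 to 3.67 in *pad2-1*. These values are below the lower quartile of every array (3.80 to 3.91), so the full size of either fall could hardly be measured. In control *IMA1* was 0.94 higher in *pad2-1* than in WT plants. The P-lim arrays of *BHLH101* (AT5G04150), another of these iron genes, were also below the lower quartile (3.14 to 3.45). Of 16 genes picked from the study's text, *ERF6* (AT4G17490), a stress transcription factor, was the 1 with a name here, with -1.38 in WT plants, -1.59 in *pad2-1* and an interaction of -0.21 (adjusted p = 0.889). Lists of early stress transcription factors, jasmonate, flavonoids, sugar and starch, senescence, clock and light response held 23 measured genes, of which none passed the interaction in limma and 0 had an unadjusted p under 0.05. As a check of the tissue, the Rubisco activase gene *RCA* (AT2G39730) of green leaves had a mean of 13.2 and the root hair expansin gene *EXPA7* (AT1G12560) one of 4.25 over all arrays, and their interactions were 0.02 and 0.14 and did not pass. The check rests on 1 of 10 listed leaf markers and 1 of 9 root markers, and none of 10 floral markers was measured.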

How the data were processed

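The authors normalized the Affymetrix ATH1 arrays together with RMA, as the labels and methods state, and deposited log2 values for 22810 probe sets and 18 arrays; the labels name Trizol and the methods a column kit for RNA extraction. These values were used as deposited. After 64 control probe sets were left out, 22746 were tested. Probe sets were named through the platform annotation and RefSeq (TAIR10.1 gene names only), of which 13631 were named by 1 gene, 508 by several and 8607 by none, so many well-known genes are not reported here. Means of the 6 groups were fitted to all 18 arrays in R 4.3.3 with limma 3.58.1 (lmFit, eBayes), with Benjamini-Hochberg adjustment over every probe set tested. Arrays of the same group in the contrast correlated with r = 0.9969 to 0.9984 across probe sets. The number of arrays limits the precision. The steps were tested on simulated data.

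Named genes were, by rule, the 5 largest single-gene interactions of each class and the called members of 23 lists (38 genes); 11 more that carry a symbol were added after their values were seen. A gene with several probe sets is given by the brightest one. Members, rules and lists were chosen with earlier results of these data known. Alternatives were the 12 arrays alone, the brighter 50% of probe sets, arrays shifted to 1 median, a trended robust prior, the replicate number as a block, a minimum size of 1, and each array left out. Promoter motifs were not searched, since no sequences were used here.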

Additional observations from a re-analysis of the deposited data

Results flagged for a closer look

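The values below are differences between groups where the difference itself was tested and passed. The first is the interaction as a whole, with 165 probe sets whose P-lim response differed between *pad2-1* and WT plants. The others are the 9 named genes whose interaction with P-lim also differed from that with MV in limma, in a contrast that does not use the control arrays. These genes were chosen by their P-lim interaction, and the same P-lim arrays enter this contrast, so it is a description of them and no independent support. The interaction with P-lim minus that with MV was 1.495 for *BGLU28*, 1.394 for AT5G17340, 0.9583 for AT1G13750, 0.7778 for AT1G73040 and 0.4955 for AT3G10530. It was -0.701 for *UGT73B1*, -0.5943 for *EXO*, -0.5367 for AT4G25780 and -0.4788 for *RALFL33*. The adjusted p of *BGLU28* (0.0477) and *EXO* (0.0487) lay near the threshold, and that of *UGT73B1* was 0.00703. No test for a single outlying array was made within the groups of 3, and the effect of leaving out each array is given with the results and below.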

How the results depend on the processing

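No sign of the 49 named interactions turned under any of the 17 refits, and 26 of the 49 genes stayed called wherever they were tested; 202 of 814 gene and setting pairs lost the call. With the 12 arrays alone *HSP17.6C*, *SUFE2*, AT2G41380, *NDB2*, *PUB25*, *AAH*, AT1G52930, AT1G36550, AT2G37400, AT3G51400, AT3G10530 and AT1G70420 were not called. Shifted arrays ended the calls of AT1G52930, AT1G36550, AT3G51400 and AT1G70420, and the trended robust prior those of *HSP17.6C*, *SUFE2* and AT5G60680. The causes of the moves were not tested. Calls in the interaction numbered 164 with the 12 arrays alone, 182 with arrays shifted to 1 median (29 higher and 153 lower) and 57 at a size of 1 or more (12 higher and 45 lower). Higher calls rose from 42 to 87 in the brighter 50% of probe sets and 82 with the trended robust prior. Responses of WT plants alone went from 42 to 67 and 76 and genotype differences under P-lim only from 36 to 65 and 64 under the same settings, and responses of both genotypes from 34 to 55 in the brighter 50%. Genotype differences in neither condition went from 4 to 1 with shifted arrays and 10 with the trended robust prior. With a size of 1 or more asked of the own response, the classes held 41 (*pad2-1* alone), 25 (WT alone), 2 (both) and 2 (opposite), and 95 had neither.

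With 1 array left out, calls ranged from 90 to 237 (15 to 82 higher, 75 to 187 lower), *pad2-1* alone from 38 to 116, WT alone from 23 to 61, both from 18 to 49 and opposite from 7 to 22. Genotype differences ranged from 39 to 98 in control only, 16 to 78 under P-lim only, 32 to 97 in both conditions and 0 to 7 in neither, and calls of the P-lim interaction minus the MV interaction from 135 to 306 (296 with all arrays; the 12 arrays alone give no such value). Replicate numbers did not pair the arrays: same-numbered arrays correlated in their deviations with r = -0.0741 to 0.177, 2 of 18 pairs were over 0.1, and 6 of 12 arrays correlated best with their own number. With the replicate block 140 were called (104 lower), 8 of the 49 named genes were not called (*SUFE2*, AT2G41380, AT1G18740, *AAH*, *BZIP53*, AT1G52930, AT3G51400 and AT1G70420), and differences in neither condition numbered 2. Of the 165, 13 had a mean over all 18 arrays below the lower quartile of each array of the contrast, where a fall cannot be measured well. This count leaves out probe sets that were that low in WT control only in part of the arrays. Examples are *HSP17.6C* and *SUFE2*, with means of 3.30 and 3.23 in WT control and of 3.89 and 5.24 over all 18 arrays.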
